A study of Caenorhabditis elegans with 16 samples.

Results

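The genes described here are 10 genes of C. elegans that encode antimicrobial peptides of the epidermis: nlp-27, nlp-28, nlp-29, nlp-30, nlp-31, nlp-33 and nlp-34 of the neuropeptide-like family, and cnc-1, cnc-2 and cnc-4 of the caenacin family. The members are a fixed list of names, and all 10 were found among the 19974 named genes of the deposited tables. RNA polymerase DamID (RAPID) was carried out in 8 groups with 2 replicates each, 16 libraries in all. The groups were baf-1(G12T) hypodermis, wild-type hypodermis, baf-1(G12T) intestine and wild-type intestine, each with a Dam::RPB-6 strain and a GFP::Dam strain. The baf-1(G12T) strains carry the bq19 allele, in which the glycine at residue 12 of the chromatin protein BAF-1 is replaced by threonine to model Néstor-Guillermo progeria syndrome, and the other strains carry wild-type baf-1. Dam, a bacterial methyltransferase, was fused either to RPB-6, a subunit shared by RNA polymerases, or to GFP, and methylates the adenine of GATC wherever the fusion visits chromatin. In every strain, control strains included, the Dam fusion is a single-copy transgene under a heat shock promoter that is left uninduced, and a cassette that blocks it is cut out by FLP recombinase. FLP was driven by the dpy-7 promoter for hypodermis, the syncytial epidermis of the worm, and by the nhx-2 promoter for intestine, so that the profiles depend on where these promoters act. For each sample, L1 larvae were grown for 48 h at 20 °C on a bacterial strain without Dam methylation. Then 4000 L4 larvae were collected, and 200 ng of their genomic DNA was amplified with 14 PCR cycles.

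Worms with infected or wounded skin secrete small peptides rich in glycine and aromatic residues. In the best known route the receptor DCAR-1 acts through the G protein GPA-12 and protein kinase C on a p38 MAPK cascade (TIR-1, NSY-1, SEK-1, PMK-1), and the transcription factor STA-2 then induces nlp-29 and its neighbours in the epidermis, as shown with the fungus Drechmeria coniospora. cnc-2 is induced through a separate route, in which neurons release the TGF-beta ligand DBL-1 and the epidermis responds through the receptor SMA-6 and the Smad protein SMA-3. High salt and loss of certain cuticle collagens also raise nlp-29. The worms studied here were not described as infected or wounded, so the values concern these genes under standard culture.

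RAPID reads a gene through the GATC fragments it touches, and these genes are short, from 237 bp (cnc-1) to 762 bp (nlp-30). All 10 are protein-coding genes with 2 exons on chromosome V (WBcel235, the assembly also named ce11). The deposited number of fragments was 1 for nlp-28 and cnc-1, 2 for nlp-29, nlp-31, nlp-34, cnc-2 and cnc-4, 3 for nlp-27 and nlp-33, and 6 for nlp-30. A count of GATC fragments in the genome gave the same number for all 10, and for 99.2% of 19310 genes placed on it. nlp-28 and cnc-1 have no GATC inside the gene, so the single fragment of each is bounded by sites on either side. The sites inside 4 genes that the results turn on are shown in windows of 30 bases, read 5′ to 3′ along each gene, with the GATC in capitals.
nlp-33 5′ UTR, chrV:11147340-11147369: cttgatatcatcaGATCatgatttcgactt
nlp-33 3′ UTR, chrV:11147635-11147664: atgatacctcaacGATCttctgctcttcaa
nlp-31 5′ UTR, chrV:3980093-3980122: gataagaatatctGATCtataaaaagacaa
nlp-29 intron, chrV:3984566-3984595: ctcaaaaaaagtaGATCattcacacatatt
nlp-27 intron, chrV:3989525-3989554: atcctaaattttcGATCatttctgtttaac
nlp-27 3′ UTR, chrV:3989751-3989780: ataatgaattttcGATCtttatttgttatc
Of the 14 sites inside the 10 genes, 5 lie in nlp-30, with 4 of those in its 5′ UTR. The 24 fragments had a median length of 445 bp and ranged between 49 and 1561 bp. Only 1 of the 24 is shared with another gene of the tables, the 1561 bp fragment of nlp-34, which also touches str-83, so no value below is the same fragment read under 2 of these peptide genes. The fragments under 150 bp number 4, of 130, 49 and 94 bp in nlp-30 and 122 bp in nlp-31. The 40 bases on each side of the 34 sites occur once in the genome in 66 of 68 cases. The exceptions are the flanks of the site 995 bp downstream of the start of nlp-27, with 30 and 28 copies. The genes themselves resemble each other: the coding sequences of nlp-30 and nlp-31 are 84.4% identical, those of nlp-29 and nlp-31 84.3%, and those of nlp-28 and nlp-29 82.6%.

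The genes lie in 3 places. nlp-34 (WBGene00015046, chrV:3978825-3979134, minus strand) is followed on the plus strand by nlp-31 (WBGene00003769, chrV:3980055-3980622), nlp-30 (WBGene00003768, chrV:3981980-3982741), nlp-29 (WBGene00003767, chrV:3984425-3984847), nlp-28 (WBGene00003766, chrV:3987900-3988316) and nlp-27 (WBGene00003765, chrV:3989378-3989770), 6 genes within 10946 bp. cnc-1 (WBGene00000555, chrV:1444044-1444280, minus strand), cnc-4 (WBGene00000558, chrV:1447195-1447707, plus strand) and cnc-2 (WBGene00000556, chrV:1449665-1450183, minus strand) lie within 6140 bp. nlp-33 (WBGene00003771, chrV:11147346-11147737, plus strand) is apart from both clusters.

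The 200 bases before the annotated start were compared because genes of 1 cluster differed in their scores, as given further on. They are shown for the pair with the most alike promoters, nlp-29 and nlp-28, and for nlp-33 and nlp-31, with TATAAA and hexamers built on GATA (A or T before it, A or G after it) in capitals, on either strand.
nlp-33 promoter, chrV:11147146-11147345, plus strand: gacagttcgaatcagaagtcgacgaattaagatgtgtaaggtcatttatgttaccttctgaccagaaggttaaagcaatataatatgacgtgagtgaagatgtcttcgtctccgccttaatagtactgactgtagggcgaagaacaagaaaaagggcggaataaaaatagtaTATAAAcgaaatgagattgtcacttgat
nlp-31 promoter, chrV:3979855-3980054, plus strand: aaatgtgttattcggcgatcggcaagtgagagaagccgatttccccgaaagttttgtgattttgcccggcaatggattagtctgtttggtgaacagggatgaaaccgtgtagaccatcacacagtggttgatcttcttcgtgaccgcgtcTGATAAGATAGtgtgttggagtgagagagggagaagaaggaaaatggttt
nlp-29 promoter, chrV:3984225-3984424, plus strand: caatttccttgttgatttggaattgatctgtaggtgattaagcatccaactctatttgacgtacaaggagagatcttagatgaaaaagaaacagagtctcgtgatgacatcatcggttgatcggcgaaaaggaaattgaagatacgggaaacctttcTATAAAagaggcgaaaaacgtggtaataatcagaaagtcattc
nlp-28 promoter, chrV:3987700-3987899, plus strand: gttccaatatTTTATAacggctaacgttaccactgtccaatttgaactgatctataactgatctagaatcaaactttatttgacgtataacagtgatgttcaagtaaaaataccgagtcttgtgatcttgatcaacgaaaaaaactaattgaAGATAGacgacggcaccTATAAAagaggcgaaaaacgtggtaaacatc
nlp-28 and nlp-29 share a run of 27 bases, ctataaaagaggcgaaaaacgtggtaa, which ends 5 bp before the start of nlp-28 and 17 bp before that of nlp-29. The next longest run shared by any pair of the 10 promoters has 11 bases. TATAAA, chosen after the sequences had been seen, was found in 6 of the 10 promoters (nlp-27, nlp-28, nlp-29, nlp-33, cnc-1 and cnc-2), against 30.2% of 19310 promoters of the same length. A GATA hexamer, the kind of site bound by GATA factors such as the epidermal ELT-3, was found in 6 of the 10 (nlp-27, nlp-28, nlp-31, nlp-34, cnc-2 and cnc-4), against 42.6% of the 19310. No GATA hexamer overlapped a TATAAA in the 10 promoters. These are matches of letters in a fixed window and were not tied to the scores. The window stops at the annotated start, and TATAAA also occurs beyond it, in the 5′ UTR of nlp-30 and of nlp-31.

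The RAPID score of a gene is log2(Dam::RPB-6/GFP::Dam) over its fragments. A score of 0 thus shows no excess of the polymerase fusion over GFP::Dam, after the authors' normalization. By itself it cannot tell equal methylation from a lack of reads. Some genes, such as AC8.10, scored exactly 0 in all 4 profiles. Each score comes with a false discovery rate (FDR), and a gene is here called transcribed at an FDR under 0.05. The tables hold 1 score per gene in each combination of tissue and genotype, in which the 2 replicates are already combined. No spread between replicates could be computed, every difference below is a difference of 2 values, and no test of it was possible. The number of reads behind a score is likewise not in the tables. The study's own read counts show by far the most uneven pair of Dam::RPB-6 replicates in baf-1(G12T) hypodermis, where 1 replicate had far fewer reads at GATC sites. Every genotype comparison in hypodermis below uses this profile, and the part of the unevenness in the scores was not tested. Among 10 hypodermis markers, 4 were called in baf-1(G12T) and 6 in wild-type hypodermis, and 1 in baf-1(G12T) and 2 in wild-type intestine. dpy-7, whose promoter set the hypodermal profiles, was called in none of the 4. Of 9 intestine markers, none was called in either hypodermal profile, 5 in baf-1(G12T) intestine and 4 in wild-type intestine. Of 3 markers each for muscle, neurons and germ line, unc-104 (neuronal kinesin) was called in all 4 groups and unc-15 (paramyosin) in baf-1(G12T) intestine.

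In hypodermis the scores of the nlp genes ranged between 0.03 and 3.64 in baf-1(G12T) and between 0.28 and 2.19 in wild type, with nlp-33 the highest in both. In baf-1(G12T) hypodermis nlp-33 had a score of 3.64 (FDR 1.8e-06), the highest of all 19974 genes. In wild-type hypodermis its score was 2.19 (FDR 3.7e-06), the 4th highest. In intestine it scored −0.13 in baf-1(G12T) and −0.09 in wild type. nlp-33 was thus high in both hypodermal profiles and under 0 in both intestinal ones.

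nlp-29, the most used reporter of the epidermal response, was next in wild type. Its score was 0.43 (FDR 0.0780) in baf-1(G12T) hypodermis, where it ranked 1011th, against 1.71 (FDR 0.000285) in wild-type hypodermis, where it ranked 15th. In intestine it scored −0.08 in baf-1(G12T) and −0.11 in wild type. Of the 4 profiles, wild-type hypodermis alone gave nlp-29 a score above 1.

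nlp-27 scored 0.32 (FDR 0.0885) in baf-1(G12T) hypodermis and 1.14 (FDR 0.000849) in wild-type hypodermis. In intestine it scored 0.29 (FDR 0.0607) in baf-1(G12T) and 0.02 (FDR 0.128) in wild type, so that in baf-1(G12T) its scores in both tissues were nearly equal. It had the highest intestinal score of the 10 in both genotypes.

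nlp-30, the longest of the genes, scored 0.03 (FDR 0.288) in baf-1(G12T) hypodermis against 0.87 (FDR 0.000207) in wild-type hypodermis, and −0.08 and −0.03 in baf-1(G12T) and wild-type intestine. nlp-31 had the reverse order in hypodermis, with 1.63 (FDR 0.00419) in baf-1(G12T) and 0.83 (FDR 0.0102) in wild type, and −0.19 and −0.07 in baf-1(G12T) and wild-type intestine. These neighbours had almost the same wild-type score, while in baf-1(G12T) hypodermis nlp-31 was the second and nlp-30 the second lowest of the 10.

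nlp-28 scored 0.79 (FDR 0.0556) in baf-1(G12T) hypodermis and 0.74 (FDR 0.0319) in wild-type hypodermis, and −0.07 in each intestinal profile. It is called in wild type alone, with scores that differed by 0.05 as deposited and by −0.14 after the quantile normalization described further on. The score that a gene of 1 fragment needed was higher in the mutant table: the lowest called score of such genes was 0.97 in baf-1(G12T) and 0.62 in wild-type hypodermis. For genes of 2, 3 and 6 fragments the lowest called scores were 0.66, 0.51 and 0.34 in baf-1(G12T) hypodermis, and 0.44, 0.35 and 0.23 in wild-type hypodermis. The baf-1(G12T) scores of nlp-27 and nlp-30 lay under the wild-type values for their fragment number as well. That of nlp-29, 0.430, lay between the highest uncalled score (0.425) and the lowest called score (0.438) of wild-type genes with 2 fragments.

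nlp-34, which points away from the other genes of its cluster, scored 0.06 in baf-1(G12T) hypodermis and 0.28 (FDR 0.0932) in wild-type hypodermis, and −0.02 and −0.00 in baf-1(G12T) and wild-type intestine. cnc-2, the DBL-1 target, scored 0.39 (FDR 0.0865) in baf-1(G12T) and 0.10 in wild-type hypodermis, and 0.13 in baf-1(G12T) and −0.08 in wild-type intestine. cnc-4 scored 0.12, 0.09, −0.00 and 0.01 in the same 4 profiles, and cnc-1 −0.01, −0.01, 0.02 and 0.01.

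**Figure D1:**
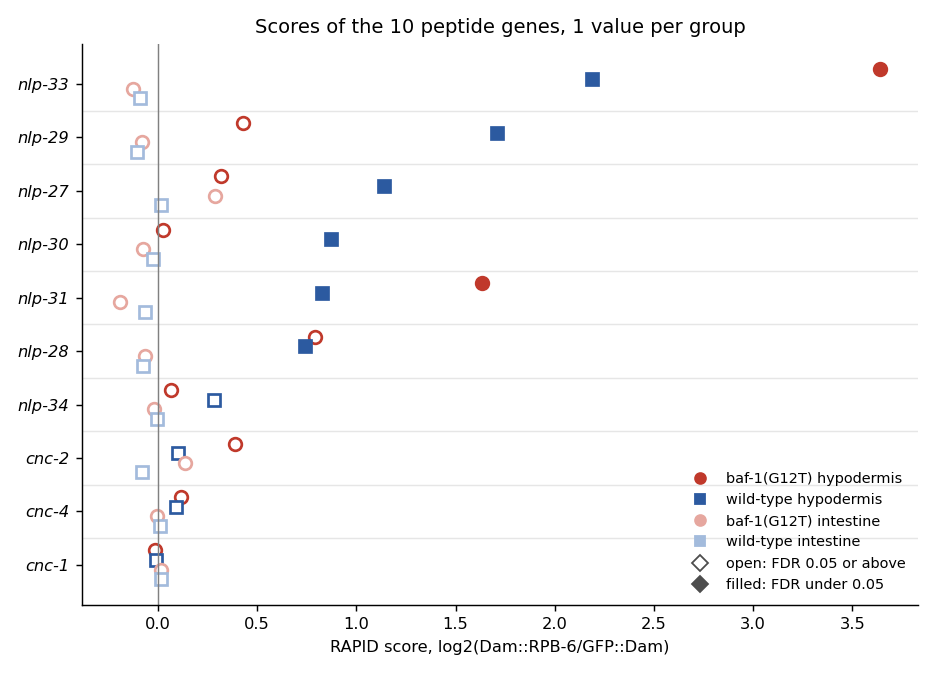
Score of each of the 10 genes, log2(Dam::RPB-6/GFP::Dam) on the horizontal axis, with 1 point per combination of tissue and genotype, filled where the FDR is under 0.05 and open otherwise, and no error bar since each has 1 value. nlp-33 is the highest gene in both hypodermal profiles, at 3.64 in baf-1(G12T) and 2.19 in wild type, and all intestinal points lie between −0.19 and 0.29.

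In baf-1(G12T) hypodermis 2 of the 10 genes were called, nlp-31 and nlp-33, where 7.53% of all named genes were called. In wild-type hypodermis 6 of the 10 were called, nlp-27 to nlp-31 and nlp-33, where the share of all named genes was 9.81%. In baf-1(G12T) intestine 0 of the 10 were called against 10.5% of all named genes, and in wild-type intestine 0 against 7.94%. None of the 3 caenacin genes among the 10 was called in any of these 4 profiles. Genes with few fragments were called less often. Among the 8857 genes with at most 6 fragments, as many as nlp-30 has, the shares were 4.66% in baf-1(G12T) and 5.59% in wild-type hypodermis, and 5.23% in baf-1(G12T) and 4.13% in wild-type intestine. At an FDR under 0.1, 6 of the 10 genes passed in baf-1(G12T) hypodermis, against 9.56% of all named genes, and 7 in wild-type hypodermis, against 12.2%. At an FDR under 0.01 the counts were 2 in baf-1(G12T), against 4.77%, and 4 in wild type, against 6.44%. The contrast of 2 with 6 calls thus depends on the threshold. The median score of the 10 was 0.35 in baf-1(G12T) hypodermis and 0.78 in wild-type hypodermis, against −0.02 and −0.04 over all genes. In intestine it was −0.04 in baf-1(G12T) and −0.05 in wild type, against −0.02 and −0.07 over all genes. Within hypodermis the median of the 7 nlp genes was 0.43 in baf-1(G12T) and 0.87 in wild type, and that of the 3 caenacin genes 0.12 and 0.09.

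In baf-1(G12T) animals, the score in hypodermis minus that in intestine was 3.77 for nlp-33, the 2nd largest of all named genes, and 1.83 for nlp-31. These 2 were the genes higher in hypodermis by over 1, against 1.53% of all named genes, and 0 were lower by over 1, against 0.546%. nlp-28 was higher by 0.86, nlp-29 by 0.51 and cnc-2 by 0.25. nlp-27 (0.03), nlp-30 (0.10), nlp-34 (0.09), cnc-4 (0.12) and cnc-1 (−0.03) had nearly the same score in both tissues. The median difference was 0.19 over the 10 genes and 0.01 over all named genes.

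In wild-type animals the same difference was 2.28 for nlp-33, 1.82 for nlp-29 and 1.12 for nlp-27. The first of these is a 4.85-fold and the second a 3.53-fold higher ratio of Dam::RPB-6 to GFP::Dam, and they ranked 6th and 22nd among all named genes. The 3 genes past 1 stand against 1.26% of all named genes, and 0 of the 10 were lower by over 1, against 0.616%. nlp-30 and nlp-31 were both higher by 0.90, nlp-28 by 0.81 and nlp-34 by 0.29. The caenacin genes differed by 0.18 (cnc-2), 0.08 (cnc-4) and −0.03 (cnc-1). The median tissue difference was 0.85 over the 10 genes, which had been known as epidermal genes from earlier work, and 0.02 over all named genes. The genes past 1 share nlp-33 between genotypes, with nlp-31 added in baf-1(G12T) and nlp-27 and nlp-29 in wild type.

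**Figure D2:**
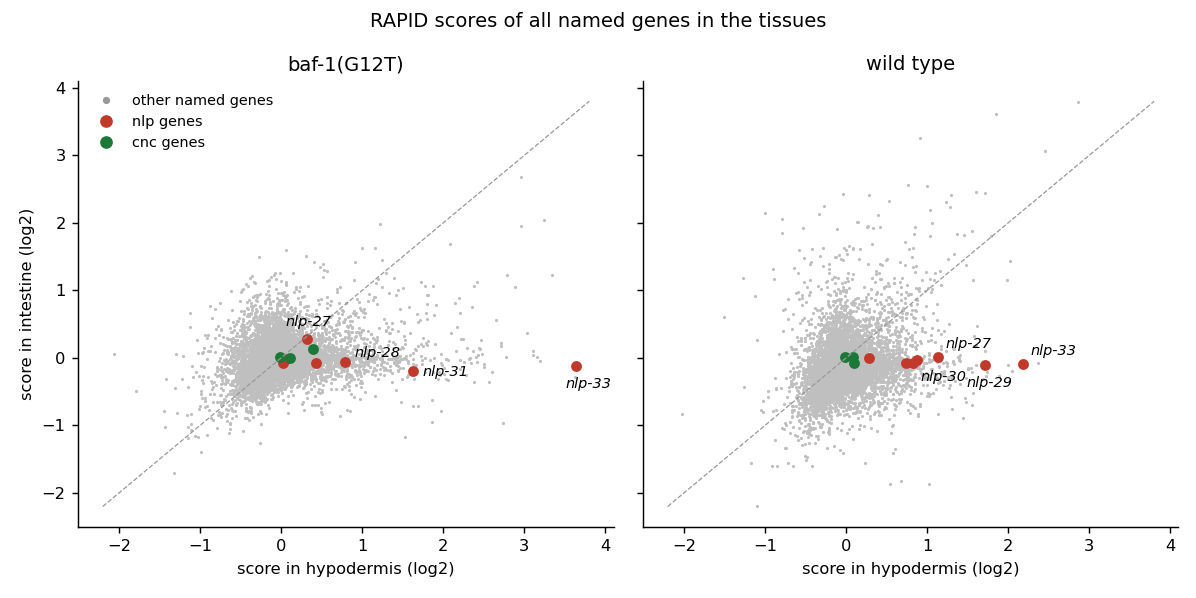
Score in hypodermis (horizontal axis, log2) against score in intestine (vertical axis, log2) of every named gene, in baf-1(G12T) on the left and wild type on the right, with the dashed line at equal scores. The nlp genes (red) reach 3.64 on the hypodermal axis for nlp-33 in baf-1(G12T), with intestinal scores between −0.19 and 0.29. In baf-1(G12T) nlp-27 lies close to the dashed line, at 0.32 in hypodermis and 0.29 in intestine. The caenacin genes (green) lie between −0.08 and 0.39 on both axes.

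Comparing genotypes within hypodermis, the nlp genes differed in both directions. nlp-33 was higher in baf-1(G12T) by 1.45, a 2.74-fold higher ratio, and nlp-31 was higher by 0.80. nlp-29 was lower in baf-1(G12T) by a score difference of −1.28, a 2.43-fold lower ratio, nlp-30 by −0.84 and nlp-27 by −0.82. Neither nlp-28 (0.05) nor nlp-34 (−0.22) left the range between the 5th and 95th percentile of all genes, −0.36 to 0.38, and cnc-2 (0.29), cnc-4 (0.03) and cnc-1 (−0.00) did not either. Among the 2759 genes called in at least 1 hypodermal profile, this range was wider, −0.89 to 1.18. nlp-31, nlp-30 and nlp-27 lay within that wider range, and nlp-33 and nlp-29 outside it. The gene pair with opposite differences past 1 thus consisted of nlp-33, 86th highest of all named genes, and nlp-29, 35th lowest. Of the 10 hypodermis markers, 3 were also higher in baf-1(G12T) hypodermis by over 1, dpy-13 (1.65), rol-6 (1.53) and lin-26 (1.20), and 0 were lower.

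Among the 10 peptide genes, the counts past 1 were 1 gene higher, against 1.06% of all named genes, and 1 gene lower, against 0.486%. Among the 2759 genes called in at least 1 hypodermal profile, these shares were 7.65% higher and 3.30% lower. A single gene in 10 is read beside these shares as a description only. Of the 10 differences 5 were positive and 5 negative, with a median of 0.01, against 0.02 over all named genes. The scores of the baf-1(G12T) table were spread more widely, with an SD of 0.30 over all genes against 0.23 in wild type. After quantile normalization of the 4 tables, which removes that difference in spread, nlp-33 was higher by 0.63, nlp-31 by 0.34 and nlp-29 differed by −1.68, and the difference of nlp-28 became −0.14. Over all named genes 212 were higher and 97 lower by over 1, so that 68.6% of those past 1 were higher, and after the same step this share was 46.4%. The size of the nlp-33 difference thus depended on the scaling, and under it nlp-29 alone among these genes stayed past 1. Quantile normalization uses ranks alone. nlp-33 ranked 1st in baf-1(G12T) and 4th in wild-type hypodermis, and these ranks set its difference after that step.

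In intestine, 0 of the 10 genes were higher in baf-1(G12T) by over 1, against 0.556% of all named genes, and 0 lower, against 0.451%. The 10 differences lay between −0.12 (nlp-31) and 0.27 (nlp-27), with cnc-2 next at 0.21. The genotype differences of nlp-33 and nlp-29 in hypodermis had no counterpart of that size in intestine, where they were −0.04 and 0.03. Whether the genotype difference itself differs between tissues was not tested.

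**Figure D3:**
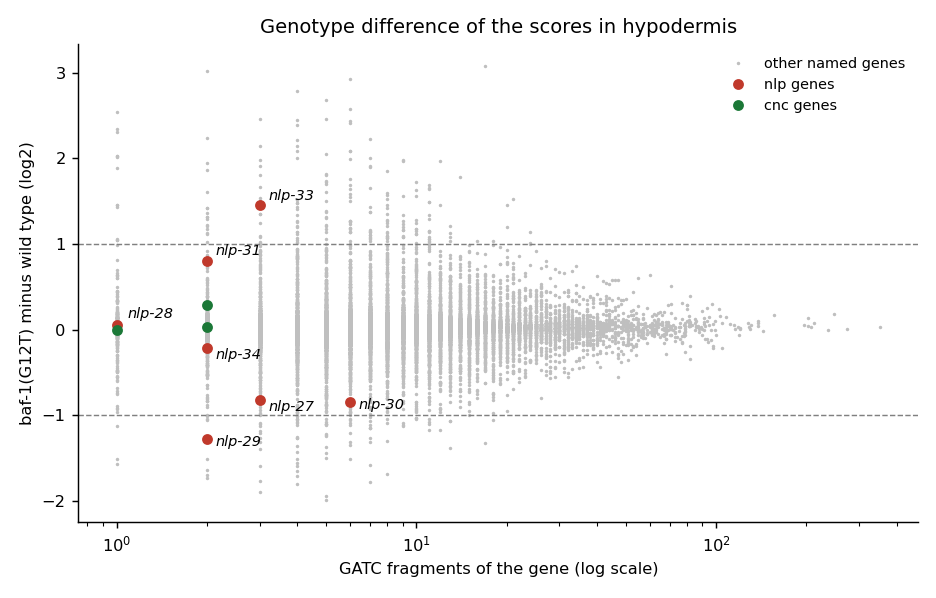
Score in baf-1(G12T) minus score in wild type in hypodermis (vertical axis, log2) against the number of GATC fragments of a gene (horizontal log axis), for all named genes (grey), the nlp genes (red) and the caenacin genes (green), with dashed lines at differences of 1 and −1. nlp-33 lies at 1.45 with 3 fragments and nlp-29 at −1.28 with 2 fragments, on opposite sides of the cloud.

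Along the large cluster the order of scores differed between genotypes. In wild-type hypodermis the 5 genes nlp-31, nlp-30, nlp-29, nlp-28 and nlp-27 all lay between 0.74 and 1.71, with nlp-29 in the middle the highest. In baf-1(G12T) hypodermis nlp-31, at one end, had 1.63, its neighbour nlp-30 had 0.03, and nlp-28 had 0.79 between nlp-29 with 0.43 and nlp-27 with 0.32. Directly beyond this cluster, str-83 scored 0.04 in baf-1(G12T) and 0.05 in wild-type hypodermis, and K09D9.9 was called in both genotypes with 0.61 and 0.74. K09D9.9 thus differed little between genotypes where nlp-31 and nlp-27 differed by 0.80 and −0.82. str-83 was uncalled and near 0 in both hypodermal profiles, so it says little about such a difference.

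Next to nlp-33, T19C4.24 lies 338 bp upstream on the other strand and has 1 fragment, which is shorter than 150 bp. It scored 0.57 (FDR 0.0793) in baf-1(G12T) hypodermis and 1.50 (FDR 0.00342) in wild-type hypodermis, a difference of −0.93, opposite in sign to that of nlp-33. On the other side T19C4.1 scored −0.04 in baf-1(G12T) and 0.34 in wild-type hypodermis, and srg-39 −0.08 and 0.51, both called in wild type alone. The higher nlp-33 score of baf-1(G12T) hypodermis was therefore not shared by the genes beside it. folt-1, a folate transporter gene 4225 bp away, was called in wild-type intestine alone, with −0.40 in baf-1(G12T) intestine and 0.93 in wild-type intestine.

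Further genes of the caenacin family are cnc-5 and cnc-3, which lie between the 3 described here, and cnc-11, which lies 1127 bp beyond cnc-1. cnc-5 scored 0.56 (FDR 0.0564) in baf-1(G12T) hypodermis and −0.12 in wild-type hypodermis, cnc-11 scored 0.51 and 0.16, and cnc-3 scored 0.01 and 0.14, none of them called. R09B5.11, 2177 bp from cnc-1, was called in both genotypes, with 0.75 in baf-1(G12T) and 0.67 in wild-type hypodermis. In all, of 15 genes within 5 kb of the 10 peptide genes, 2 were called in baf-1(G12T) and 5 in wild-type hypodermis, and 0 in baf-1(G12T) and 1 in wild-type intestine. The shares of all named genes were 7.53% and 9.81% in baf-1(G12T) and wild-type hypodermis and 10.5% and 7.94% in baf-1(G12T) and wild-type intestine.

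**Figure D4:**
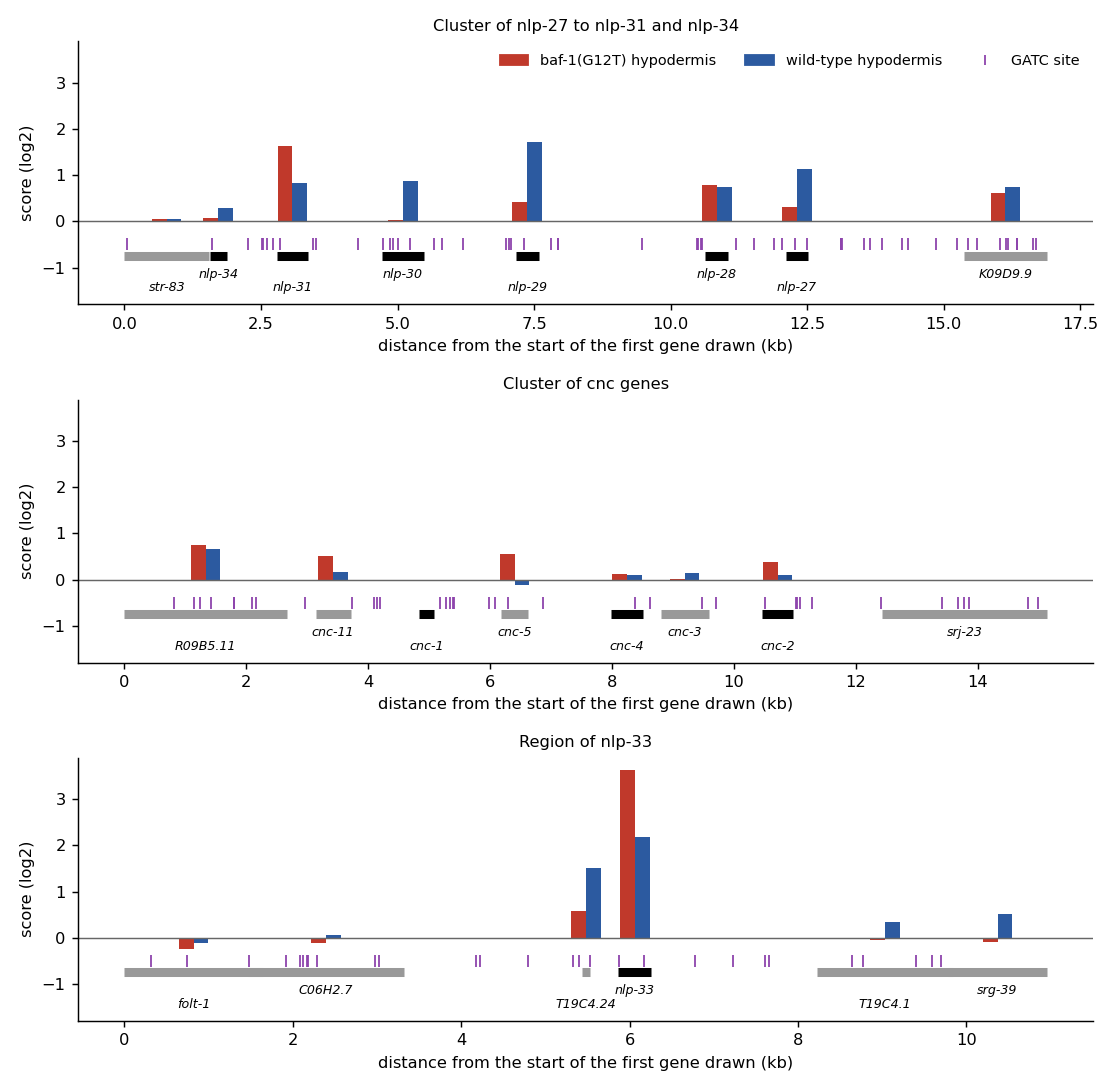
Hypodermal scores (vertical axis, log2) of the genes in each region, in red for baf-1(G12T) and blue for wild type, above a map to scale of the peptide genes (black), other genes (grey) and GATC sites (purple ticks), with the distance in kb from the start of the first gene drawn. In the upper map nlp-31 is higher in baf-1(G12T) (1.63 against 0.83) and nlp-29 higher in wild type (0.43 in baf-1(G12T) against 1.71), and in the lower map nlp-33 is higher in baf-1(G12T) while T19C4.24 beside it is higher in wild type.

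Of the 18 listed genes of the p38 MAPK branch, 5 were called in baf-1(G12T) and 10 in wild-type hypodermis, and 6 in baf-1(G12T) and 5 in wild-type intestine. The shares of all named genes called were 7.53% in baf-1(G12T) and 9.81% in wild-type hypodermis, and 10.5% in baf-1(G12T) and 7.94% in wild-type intestine. The 5 of baf-1(G12T) hypodermis were elt-3, rack-1, tpa-1, nsy-1 and snf-12, and the 5 of wild-type intestine rack-1, plc-3, egl-8, nsy-1 and nipi-3. The median genotype difference of the list was −0.03 in hypodermis, against 0.02 over all genes, and none passed 1 in either tissue. elt-3, which encodes a GATA factor of the epidermis, was called in both hypodermal profiles, with 0.92 in baf-1(G12T) and 0.54 in wild type, and had −0.40 and −0.45 in baf-1(G12T) and wild-type intestine. rack-1, which encodes a scaffold protein, was called in all 4 profiles. sta-2, encoding the STAT-like factor that acts on nlp-29, scored 0.22 (FDR 0.0739) in baf-1(G12T) hypodermis and 0.45 (FDR 0.00130) in wild-type hypodermis. pmk-1 itself, the p38 kinase gene, was called nowhere, with −0.15 in baf-1(G12T) and −0.16 in wild-type hypodermis. elt-3, rack-1, sta-2 and pmk-1 were picked after their values were known.

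Of the 6 genes of the DBL-1 branch, 2 were called in baf-1(G12T) and 2 in wild-type hypodermis, and 2 in baf-1(G12T) and 1 in wild-type intestine, and none passed a genotype difference of 1. In hypodermis these were the Smad genes sma-2 and sma-4 in both genotypes, and in intestine dbl-1 and daf-4 in baf-1(G12T) and sma-4 in wild type. The shares of all named genes were 7.53% in baf-1(G12T) and 9.81% in wild-type hypodermis, and 10.5% in baf-1(G12T) and 7.94% in wild-type intestine. daf-4, the type II receptor gene of this branch, was called in baf-1(G12T) intestine alone, with 0.23 there and −0.37 in wild-type intestine. Of 8 genes tied to the sensing of cuticle damage or osmotic stress upstream of nlp-29, 1 was called in baf-1(G12T) and 5 in wild-type hypodermis, and 0 in either intestinal profile, to be read against the same shares. The one called in both genotypes was ptr-23, and dpy-2, dpy-8, dpy-9 and dpy-10, which encode cuticle collagens, were called in wild type alone. dpy-10 had the largest genotype difference of this list, with −0.11 in baf-1(G12T) hypodermis and 0.73 in wild-type hypodermis, a difference of −0.83. The median of the list was −0.27, against 0.02 over all genes.

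Among 12 further nlp and cnc genes of the same families, 0 were called in baf-1(G12T) hypodermis, 4 in the wild-type one (nlp-24, nlp-26, cnc-8 and cnc-10) and 0 in either intestinal profile, where the shares of all named genes were 10.5% in baf-1(G12T) and 7.94% in wild type. With these, 2 of 22 genes of the nlp and caenacin families were called in baf-1(G12T) hypodermis, against 7.53% of all named genes, and 10 of 22 in wild-type hypodermis, against 9.81%. The wild-type count is not independent of the one given above, since 6 of the 10 come from the genes already described.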

How the data were processed

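RAPID measured 16 libraries, 2 replicates in each of 8 groups. The authors aligned reads carrying the DamID adapter to ce11, set the Dam::RPB-6 signal against GFP::Dam by damidseq_pipeline, and obtained values per gene from polii.gene.call. The deposited score is the log2 ratio of Dam::RPB-6 over GFP::Dam, 1 value per gene in each of 4 tables. The deposited FDR, an adjusted p-value for transcription, was used as the authors gave it. The way replicates were combined was not given in the sources used here, and reads per gene and depth are not in the tables, so no interval could be given. The authors' number of GATC fragments per gene was used as deposited.

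Of 19985 rows per table, 11 name no gene (0.0550%) and were left out. Scores were compared as differences, baf-1(G12T) minus wild type and hypodermis minus intestine, with over 1 (a 2-fold ratio) as the size of interest. This is the size part of the study's rule for deregulated genes, and its second condition, detection in both replicates, could not be applied. By size alone, 211 genes were higher and 91 lower in baf-1(G12T) among the 2759 genes called in at least 1 hypodermal profile. The paper reports far fewer reproducibly deregulated genes in hypodermis. A difference over 1 is therefore not a call by the study's rule, and the study's list was not compared with the 10 genes here. With 1 value per group no test was run. The limma fit planned for replicate scores was not made. The 10 genes and the gene lists were chosen with earlier results of these data known. The text names the 10 genes, genes within 5 kb of them, and, among the listed pathway and related peptide genes, the 8 called at least once with the largest genotype difference. Other genes of these lists are named where a count of 5 or fewer falls on them or as stated beside them, after their values had been seen. GATC sites, 200 bp promoters and coding sequences were read from the RefSeq genome of WBcel235 with gene models of Ensembl release 115. The thresholds and rescalings were checked on wild-type hypodermis scores with changes added by design. Such a check concerns the arithmetic alone and not the reliability of any difference. Alternatives were FDR thresholds of 0.01 and 0.1, a score above 0.2, at least 2 fragments, differences of 0.58 and 1.5, genes called in at least 1 group, centring on the median of all named genes and quantile normalization of the tables. Python 3.11.15, numpy 2.4.6, pandas 2.3.3, matplotlib 3.10.9 and Biopython 1.88 were used.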

Additional observations from a re-analysis of the deposited data

How the results depend on the processing

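Each table holds 1 value per gene, so leaving out replicates was not run, and no difference given here has a replicate check. No paired analysis was possible because the replicates are already combined in the deposited scores. Of 80 summary values under alternative settings, 72 stayed within the tolerance and 8 moved. The tolerance was a factor of 1.5 for counts, and for scores and differences their SD over all named genes. Within it, the count called in wild-type hypodermis was 4 at an FDR under 0.01, 5 with at least 2 fragments and 7 at an FDR under 0.1. At an FDR under 0.1, 6 of the 10 genes were called in baf-1(G12T) hypodermis (9.56% of all named genes) and 1, nlp-27, in baf-1(G12T) intestine (15.1%). With a difference of 0.58 in hypodermis, 2 genes were higher in baf-1(G12T) (2.80% of all named genes) and 3 lower (1.99%), and with 1.5, 0 were higher (0.360%) and 0 lower (0.110%). After quantile normalization 0 were higher in baf-1(G12T) hypodermis by over 1. With 0.58, 6 genes were higher in hypodermis than in intestine in wild type (4.45%). No difference past 1 changed its sign. Quantile normalization shifted the split of all genes past 1 between tissues to 190 higher and 155 lower in wild type (252 and 123 as deposited), and to 183 higher and 204 lower in baf-1(G12T) (306 and 109). Signs of single small differences changed under it for 1 of the 10 genes in the hypodermal genotype comparison, 3 in the intestinal one and 1 between tissues in baf-1(G12T). The causes were not tested.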

Other observations

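The fip and fipr genes, short peptide genes named for their induction by fungus and their relatives, were listed beside the 10 genes. Of 36 in the tables, 3 were called in baf-1(G12T) and 2 in wild-type hypodermis, and 5 in baf-1(G12T) and 0 in wild-type intestine. The background shares of all named genes in these profiles were 7.53%, 9.81%, 10.5% and 7.94%. fipr-21, with 2 fragments, had the largest genotype difference of the list. It scored 1.29 (FDR 0.00961) in baf-1(G12T) and 0.11 in wild-type hypodermis, and 0.51 (FDR 0.0346) in baf-1(G12T) and 0.02 in wild-type intestine, a difference of 1.18 between genotypes in hypodermis and 0.49 in intestine. The others called were fip-5 and fipr-23 in baf-1(G12T) hypodermis, fip-5 and fipr-22 in wild-type hypodermis, and fip-1, fipr-16, fipr-9 and fipr-7 in baf-1(G12T) intestine. fip-5, with 1 fragment, was called in both hypodermal profiles, with 1.44 in baf-1(G12T) and 0.62 in wild type. fipr-22 was called in wild-type hypodermis alone, with 0.04 in baf-1(G12T) hypodermis and 0.75 in wild-type hypodermis. fipr-16, fipr-9 and fipr-7 were called in baf-1(G12T) intestine alone, with 0.61, 0.70 and 0.49 there and −0.31, −0.06 and −0.20 in wild-type intestine. The fipr genes are alike in sequence, and whether reads could be told apart between them was not tested.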
